A study of Homo sapiens with 12 samples.

Results

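Replication-dependent histone genes are the clustered genes HIST1 to HIST4 that encode histones H1, H2A, H2B, H3 and H4. Members were all genes whose symbol began with HIST1H to HIST4H followed by 1 of the 5 histone types, without symbols that ended as pseudogenes. Of 89 matching symbols 15 were left out as pseudogenes, and 74 members remained among the 58884 genes of the table. Of these 74, 40 reached a value of 10 in 4 or more libraries and were tested, among 16950 tested genes. RNA was sequenced from KYSE70, a line of human esophageal squamous carcinoma cells, in 12 libraries of 3 groups with 4 libraries each. In 1 group the cells received 10 µM pyrimethamine, an antifolate, in another 20 nM mitoxantrone, an intercalating drug that poisons type II topoisomerases, both for 72 h, and in the third no drug (control, with no time in the labels). The labels name no vehicle for the control, and nothing in them says that replicates were separate cultures, so every p-value measures a spread that may be technical. The series title calls both drugs inhibitors of NRF2, and the comparisons ask how each drug changed the transcripts of this line. Values are the authors' read counts after division by a size factor, called normalized counts here.

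These genes supply the histones that package newly made DNA, and their transcription rises in S phase and stops when DNA synthesis stops. Their mRNAs usually carry no poly(A) tail. They end just past a short hairpin that SLBP, the stem-loop binding protein, holds, and the U7 particle directs the cut behind it. Several of these genes can also make longer transcripts that read past the hairpin and end in a poly(A) tail, which have been described in cells that leave the cell cycle. Linker histone H1 binds the DNA between nucleosomes, while H2A, H2B, H3 and H4 form the nucleosome core.

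The hairpin is shown for members with high counts or large changes, because it marks where the short form of the transcript ends. A hairpin was called where 16 bases began with GG, ended with CC and formed a stem of 6 pairs around a loop of 4 bases, within 150 bases after the stop codon in a GENCODE release 29 transcript. It was found in 32 members, 23 of them tested, out of 36 members with at least 16 annotated bases after the stop codon. Capitals mark the hairpin, read in the direction of transcription, and coordinates are on GRCh38.
HIST1H2AG: ccaacGGCTCTTTTCAGGGCCaccca
HIST1H2BD: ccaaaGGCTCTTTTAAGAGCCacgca
HIST1H2BL: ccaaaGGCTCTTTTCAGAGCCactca
HIST1H3E: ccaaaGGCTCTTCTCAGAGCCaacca
HIST1H3G: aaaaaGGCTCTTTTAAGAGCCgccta
HIST1H4H: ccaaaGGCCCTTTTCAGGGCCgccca
These hairpins lie at chr6:27133515-27133530 on the plus strand (HIST1H2AG), chr6:26158587-26158602 on the plus strand (HIST1H2BD), chr6:27807484-27807499 on the minus strand (HIST1H2BL), chr6:26225596-26225611 on the plus strand (HIST1H3E), chr6:26270923-26270938 on the minus strand (HIST1H3G) and chr6:26285131-26285146 on the minus strand (HIST1H4H), all in 3′ untranslated exon sequence. The spelling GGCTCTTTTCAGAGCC was carried by 17 members, among them HIST1H2BL, and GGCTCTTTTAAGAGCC by 5, among them HIST1H2BD and HIST1H3G. The spelling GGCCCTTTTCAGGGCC was carried by 5 members, all of type H4. The spellings of HIST1H2AG and HIST1H3E were found in 1 member each. Annotated sequence went on for 1761 bases past the hairpin in HIST1H2AG, 1862 in HIST1H3E, 1518 in HIST1H3G and 630 in HIST1H4H, but for 40 in HIST1H2BL and 39 in HIST1H2BD. HIST1H2BD has another annotated transcript with 384 bases after the stop codon. For HIST1H2BK and HIST1H1C, the members of types H2B and H1 with the most counts, GENCODE 29 gives coding sequence only, so no hairpin could be looked for.

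Depth ran from 47.5 M to 94.5 M gene reads per library. Replicates differed beyond counting noise, with a chi-square per degree of freedom of 5.45 or more in every pair. Mitoxantrone replicate 1 stood apart at 23.8 to 33.9 against the 3 others of its group. The 8 genes listed as markers of squamous epithelium were TP63, KRT5, KRT6A, KRT14, KRT17, SOX2, DSG3 and EPCAM. All 8 had a median of at least 100 normalized counts, the lowest being KRT14 with 144, beside 224018 for KRT5. Among markers of other cell types, the 4 of leukocytes reached a median of at most 5.69, and DCN and COL1A2 of fibroblasts and PECAM1 and CDH5 of endothelium had medians under 1 count. COL1A1, COL3A1 and VWF were present, with medians of 11219, 2125 and 996. The part of these genes in the results was not tested.

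Of the 34 members that were not tested, 14 had no read in any library and 20 had some. Within types H2A, H3 and H4, coding identity between members reached 100%. How reads that fit several genes were counted is not given, and its part in these low counts and in the sums by type was not tested. The untested member with the highest single value was HIST1H4B, with 38 reads over the mitoxantrone libraries and 0 in both other groups. The filter decided some comparisons in advance. Of the 40 tested members, 10 passed only through the mitoxantrone libraries (HIST1H1D, HIST1H1E, HIST1H2AJ, HIST2H2AC, HIST1H2BI, HIST1H2BL, HIST1H3F, HIST1H3J, HIST1H4D and HIST1H4E) and 2 only through the pyrimethamine libraries (HIST3H2BA and HIST1H4I). The filter favoured a difference in these 12, so the 28 others are also counted separately. Just inside the threshold, with exactly 4 libraries at 10 or more, were HIST1H1D, HIST1H1E, HIST1H2AJ, HIST1H2BL, HIST1H3F and HIST1H4D. Just outside it was HIST1H4K, with 3 libraries at 18.6, 18.4 and 10.5. Of the tested members, 2 are pseudogenes in GENCODE 29 in spite of their symbols, HIST2H2BD and HIST3H2BA, and HIST2H2BD shares 55.1% of its exon bases with HIST2H2BC on the other strand. The strand setting of the counting is not given in the sources used here, so reads of overlapping genes cannot be told apart.

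Summed over all 74 members, histone transcripts were most abundant with pyrimethamine and least abundant with mitoxantrone. The sums were 17224 ± 543 normalized counts in the pyrimethamine libraries, 4643 ± 290.3 in the mitoxantrone libraries and 6762 ± 624 in the control libraries (SD, n = 4 each). The ranges of 16550.3 to 17747, 4342 to 5036 and 5875 to 7245 did not overlap, and the ratio to the control was 2.55 for pyrimethamine and 0.687 for mitoxantrone. The members' reads made up 255 to 272 reads per M assigned reads with pyrimethamine, 64.0 to 76.3 with mitoxantrone and 95.1 to 115 in the control. In bulk RNA, a change in how many cells express these genes and a change in transcripts per cell cannot be told apart.

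The sums of the 5 histone types did not move alike with mitoxantrone. The pyrimethamine sum lay above every control library in each type, with ratios to the control mean of 2.56 for H1, 2.25 for H2A, 2.59 for H2B, 3.78 for H3 and 2.25 for H4. With mitoxantrone the ratio to the control was 0.530 for H2B and 0.690 for H2A, both with no overlap between libraries. The H4 sum was 463 ± 95.7 with mitoxantrone and 156 ± 26.5 in the control, a ratio of 2.98 with no overlap. HIST1H4C alone held most of the H4 sum in every mitoxantrone library. Of 6 tested H4 genes 3 were higher with mitoxantrone, of which HIST1H4D and HIST1H4E had passed the filter only there. HIST1H4H and HIST2H4A were lower. The sums of H1 (ratio 1.11) and H3 (ratio 0.851) overlapped between mitoxantrone and control libraries. HIST1H2BK alone made up 34.9% of the summed counts with pyrimethamine, 26.7% with mitoxantrone and 41.7% in the control. Under quantile normalization the H3 ratio turned above 1 (log2 0.14, in place of -0.23).

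**Figure D1:**
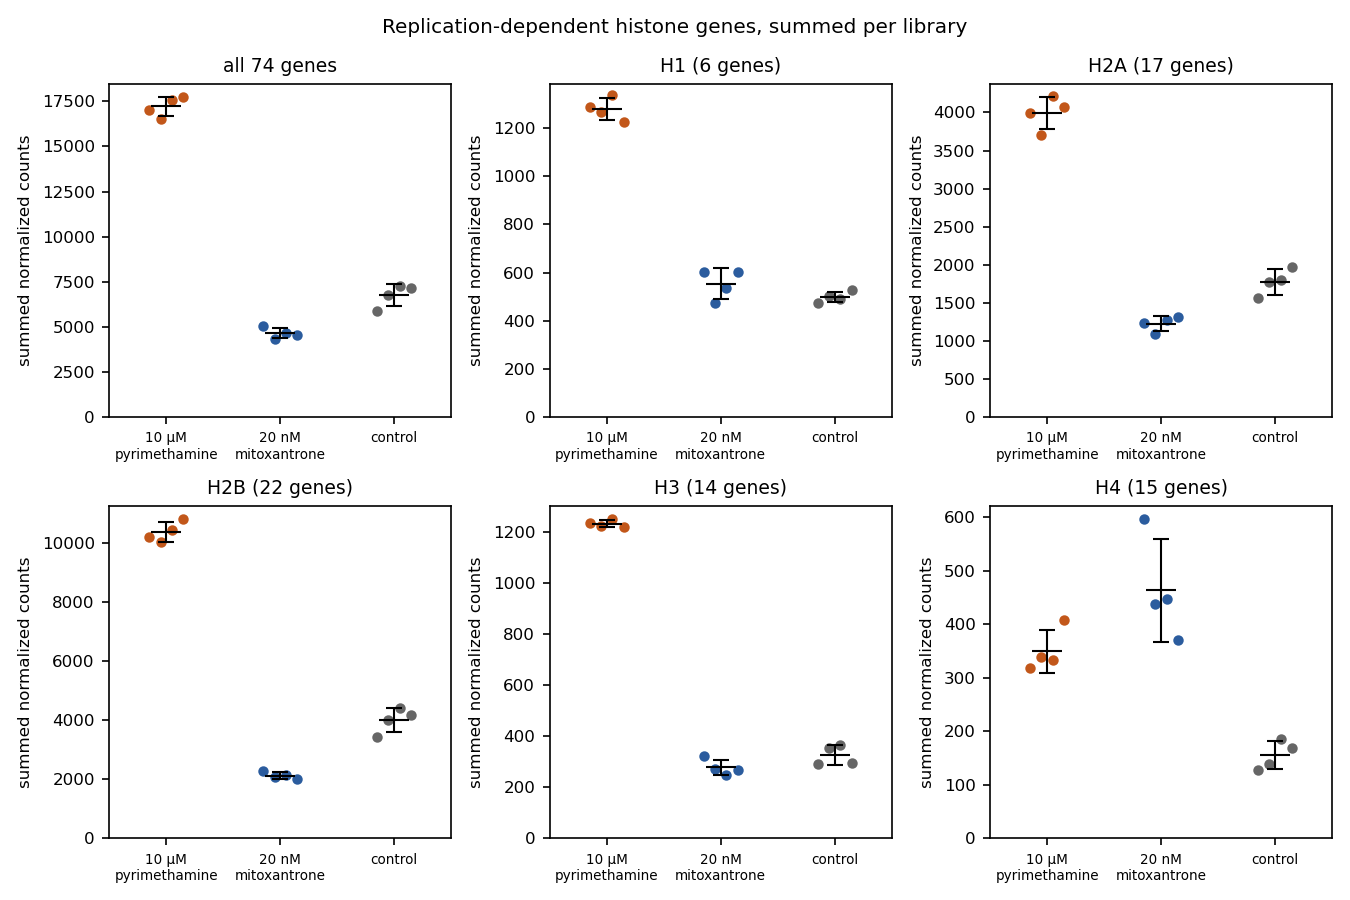
Summed normalized counts of all members and of each histone type (vertical axes, starting at 0) in the libraries of pyrimethamine, mitoxantrone and control. Points are libraries, and black marks give the mean ± SD of 4; the pyrimethamine libraries lie above the control in every panel, while the mitoxantrone libraries lie below it for H2A and H2B and above it for H4.

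Pyrimethamine raised 28 of the 40 tested members over the control and lowered none at an adjusted p under 0.05, while 12 were not called. Over all 16950 tested genes, 53.3% were called in this comparison, 26.4% higher and 26.9% lower. At an unadjusted p under 0.05 limma placed 1 member lower, and edgeR and DESeq2 each called 28 higher and 0 lower. The median log2 change was 1.36 over the 40 members, beside 0.00183 over all tested genes. Among the 28 members that did not depend on 1 group to pass the filter, 25 were higher and 3 not called. By type, 2 of 4 H1 genes, 6 of 8 H2A genes, 13 of 16 H2B genes, 4 of 6 H3 genes and 3 of 6 H4 genes were higher. Of the 12 members not called, 9 had passed the filter only through the mitoxantrone libraries.

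Mitoxantrone moved the members in both directions. Against the control 20 were higher, 15 lower and 5 not called, where 69.3% of all tested genes were called, 33.5% higher and 35.8% lower. The median log2 change was 0.37 over the 40 members, beside -0.00797 over all tested genes. All 10 members that passed the filter through mitoxantrone libraries were among the 20 higher ones. Among the 28 that depended on no 1 group, 10 were higher, 14 lower and 4 not called, with a median of -0.34. Without mitoxantrone replicate 1 the counts were 18 higher and 14 lower, and under quantile normalization they were 21 higher and 10 lower. Mitoxantrone and pyrimethamine were compared with the same 4 control libraries, so the 2 sets of changes are not independent. Against pyrimethamine directly, mitoxantrone left 12 members higher, 23 lower and 5 not called, where 76.4% of all tested genes were called, 36.9% higher and 39.5% lower. The filter favoured many of these rises, since 9 of the 12 higher members had passed it only through mitoxantrone libraries. Of the 23 lower ones, 2 had passed only through pyrimethamine libraries. Among the 28 that depended on no 1 group, 3 were higher, 21 lower and 4 not called between the drugs.

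**Figure D2:**
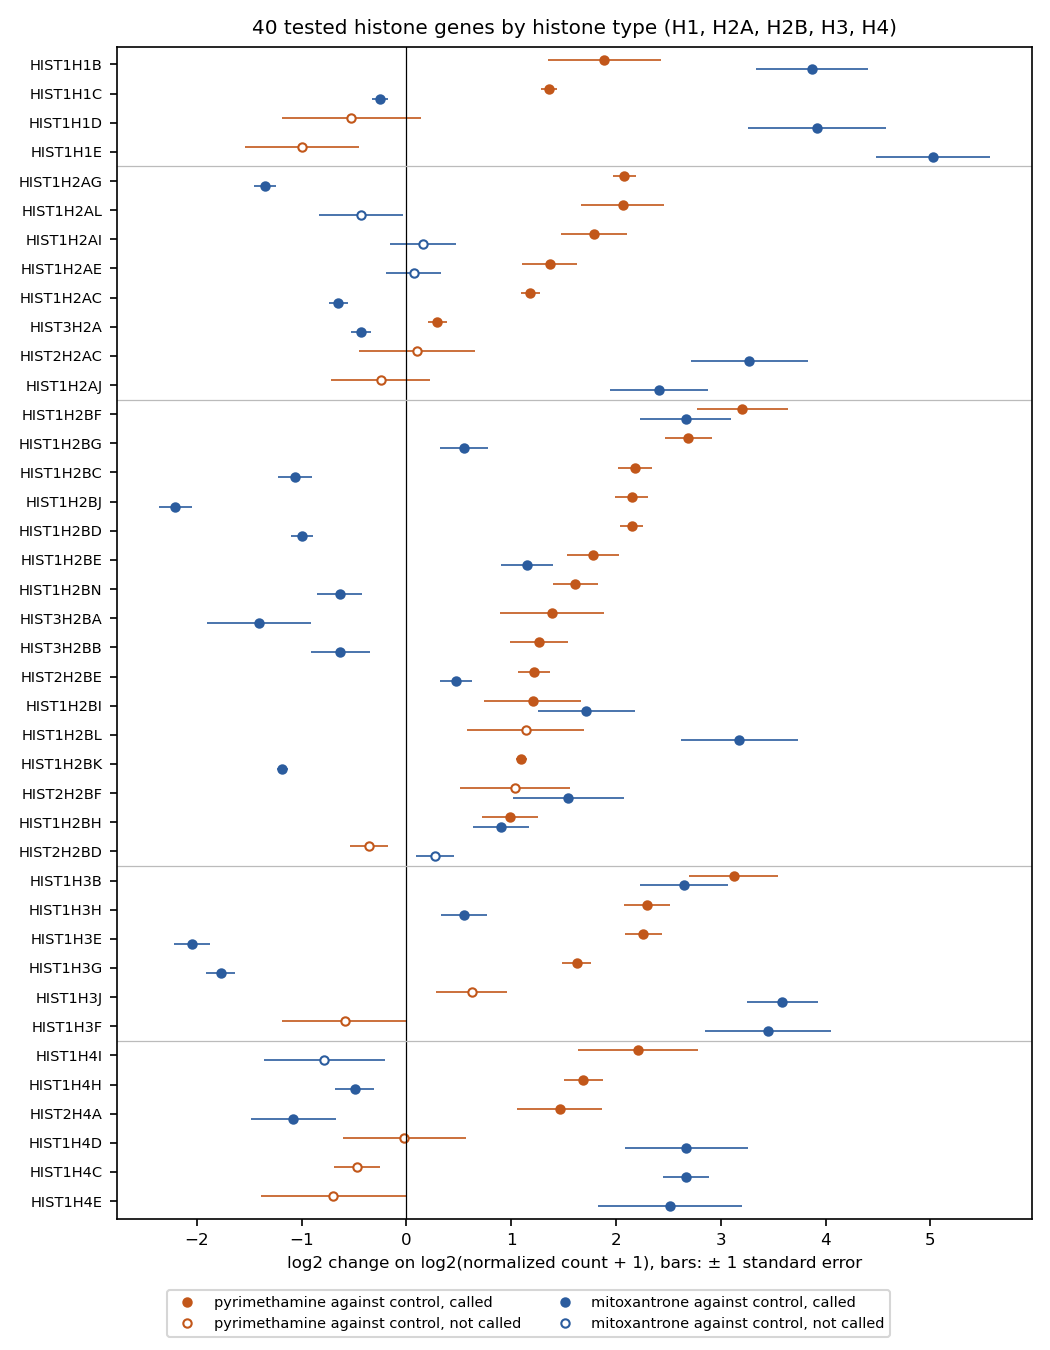
Log2 change against the control (horizontal axis, on log2 of normalized count + 1) for the 40 tested members, grouped by histone type, with pyrimethamine in orange and mitoxantrone in blue. Bars are ± 1 standard error of the change from the limma fit, which estimates 1 spread per gene over all 12 libraries. Filled points passed an adjusted p of 0.05. No filled orange point lies below 0, while filled blue points lie on both sides.

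The H1 genes split. HIST1H1C, which encodes the linker histone H1-2 and lies at chr6:26055787-26056428, had 1267, 1251, 1333 and 1211 normalized counts in the pyrimethamine libraries, 445, 352, 409 and 448 in the mitoxantrone libraries and 473, 499, 486 and 509.9 in the control libraries. No 2 groups overlapped. It was 2.57-fold higher (log2 change 1.36, SE 0.0753, adjusted p = 5.17e-12) with pyrimethamine, and with mitoxantrone 1.19-fold lower (log2 change -0.26, SE 0.0753, adjusted p = 0.00497). HIST1H1B, which encodes H1-5, had 21.4, 14.8, 5.12 and 15.3 normalized counts in the pyrimethamine libraries, 47.5, 48.7, 60.6 and 56.5 in the mitoxantrone libraries and 0.935, 0.661, 3.11 and 13.2 in the control libraries. All mitoxantrone libraries lay above all others, whereas pyrimethamine and control libraries overlapped. HIST1H1B was 14.6-fold higher (log2 change 3.87, SE 0.537, adjusted p = 1.65e-06) with mitoxantrone, and 3.70-fold higher (log2 change 1.89, SE 0.537, adjusted p = 0.00531) with pyrimethamine. Without control replicate 4, the highest of its group, these were 22.9-fold with mitoxantrone and 5.79-fold with pyrimethamine.

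HIST1H1E and HIST1H1D, which encode H1-4 and H1-3, were read almost only after mitoxantrone. HIST1H1E had 80.6, 51.5, 54.4 and 74.4 normalized counts in the mitoxantrone libraries, 0 in all 4 pyrimethamine libraries and 0.935, 0.661, 0 and 3.95 in the control libraries. That is 259 reads with mitoxantrone, 0 with pyrimethamine and 5 in the control. HIST1H1D had 89 reads with mitoxantrone, 0 with pyrimethamine and 5 in the control. With a floor of 3 reads over the 4 pyrimethamine libraries together, mitoxantrone was at least 88.3-fold higher than pyrimethamine for HIST1H1E and at least 30.3-fold higher for HIST1H1D. Against the control HIST1H1E was 32.6-fold higher (log2 change 5.03, SE 0.546, adjusted p = 4.81e-08) with mitoxantrone and HIST1H1D 15.1-fold higher (log2 change 3.92, SE 0.662, adjusted p = 2.1e-05). Both had passed the filter through these libraries, so that they differ there follows in part from the choice. With pyrimethamine neither was called, with an adjusted p of 0.131 for HIST1H1E and 0.529 for HIST1H1D. HIST1H1T, the testis form, and HIST1H1A had at most 2 reads in any group.

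Among H2A genes, HIST1H2AG at chr6:27133042-27135291 had 1759.6, 1689, 1815 and 1914 normalized counts in the pyrimethamine libraries, 184, 124, 182 and 181 in the mitoxantrone libraries and 386, 389, 455 and 472 in the control libraries. The 3 groups were fully separate. It was 4.22-fold higher (log2 change 2.08, SE 0.108, adjusted p = 2.12e-12) with pyrimethamine and 2.55-fold lower (log2 change -1.35, SE 0.108, adjusted p = 3.92e-10) with mitoxantrone, and 10.8-fold lower with mitoxantrone than with pyrimethamine. HIST3H2A on chromosome 1, which encodes an H2A in the HIST3 cluster, had 1201, 1006, 1137 and 998 normalized counts in the pyrimethamine libraries, 662, 557, 691 and 712 in the mitoxantrone libraries and 750.2, 894, 871 and 1037 in the control libraries. Its changes were small beside those of HIST1H2AG. It was 1.23-fold higher (log2 change 0.29, SE 0.0914, adjusted p = 0.00981) with pyrimethamine, with overlapping libraries, and 1.35-fold lower (log2 change -0.43, SE 0.0914, adjusted p = 0.000256) with mitoxantrone, without overlap. The pyrimethamine call for HIST3H2A was lost without control replicate 1, and the log2 change ran from 0.22 to 0.37 as single libraries were left out. Of the other 6 tested H2A genes, HIST1H2AC, HIST1H2AE, HIST1H2AI and HIST1H2AL were higher with pyrimethamine, with log2 changes between 1.18 (HIST1H2AC) and 2.06 (HIST1H2AL). HIST2H2AC and HIST1H2AJ were higher with mitoxantrone, at log2 changes of 3.27 and 2.41, and both had passed the filter only there.

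The H2B genes carried most of the counts. HIST1H2BK at chr6:27146418-27146798 had 5882, 5875, 5949.6 and 6337 normalized counts in the pyrimethamine libraries, 1240.5, 1242, 1289 and 1181 in the mitoxantrone libraries and 2482, 2814, 3084 and 2901 in the control libraries. The groups did not overlap. It was 2.14-fold higher (log2 change 1.10, SE 0.054, adjusted p = 1.08e-12) with pyrimethamine and 2.27-fold lower (log2 change -1.18, SE 0.054, adjusted p = 4.83e-14) with mitoxantrone. Per kilobase of annotated exon its level averaged 15777 normalized counts with pyrimethamine, 3249.7 with mitoxantrone and 7403 in the control, beside 1951, 220.0 and 446 for HIST1H2BD in the same groups. HIST1H2BD had 1726, 1647, 1710.3 and 1714 normalized counts in the pyrimethamine libraries, 217, 192, 173 and 185 in the mitoxantrone libraries and 289, 396, 409 and 459 in the control libraries. It was 4.43-fold higher (log2 change 2.15, SE 0.107, adjusted p = 1.16e-12) with pyrimethamine and 2.00-fold lower (log2 change -0.999, SE 0.107, adjusted p = 3.65e-08) with mitoxantrone, again without overlap.

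HIST1H2BJ showed the largest fall with mitoxantrone among the tested members. It had 1028, 928, 1044 and 1144 normalized counts in the pyrimethamine libraries, 63.0, 53.4, 50.7 and 35.0 in the mitoxantrone libraries and 179.6, 213, 269.9 and 281 in the control libraries. The 3 groups were separate by wide margins. HIST1H2BJ was 4.44-fold higher (log2 change 2.15, SE 0.157, adjusted p = 3.42e-10) with pyrimethamine, 4.62-fold lower (log2 change -2.21, SE 0.157, adjusted p = 6.27e-11) with mitoxantrone, and 20.5-fold lower with mitoxantrone than with pyrimethamine. HIST1H2BC, the divergent neighbour of HIST1H2AC, was 4.54-fold higher with pyrimethamine and 2.09-fold lower with mitoxantrone (log2 changes 2.18 and -1.06).

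Other H2B genes were higher with both drugs. HIST1H2BG had 173, 142, 173 and 159.9 normalized counts in the pyrimethamine libraries, 37.2, 26.7, 47.0 and 35.0 in the mitoxantrone libraries and 36.5, 19.8, 19.7 and 23.7 in the control libraries. Pyrimethamine libraries stood above all others, while mitoxantrone and control libraries overlapped. It was 6.46-fold higher (log2 change 2.69, SE 0.226, adjusted p = 2.66e-09) with pyrimethamine and 1.46-fold higher (log2 change 0.55, SE 0.226, adjusted p = 0.0366) with mitoxantrone. The mitoxantrone call was lost in 11 of the alternatives, among them without mitoxantrone replicate 1, 3 or 4 and without control replicate 2, 3 or 4, where the log2 change lay between 0.42 and 0.74 over all libraries left out. HIST1H2BF, low in the control, had 40.1, 18.7, 29.7 and 40.5 normalized counts in the pyrimethamine libraries, 37.2, 11.4, 27.2 and 16.1 in the mitoxantrone libraries and 1.87, 5.95, 2.08 and 1.32 in the control libraries. It was 9.23-fold higher (log2 change 3.21, SE 0.436, adjusted p = 2.41e-06) with pyrimethamine and 6.34-fold higher (log2 change 2.66, SE 0.436, adjusted p = 1.41e-05) with mitoxantrone, and both drug groups were above every control library. HIST1H2BE, HIST1H2BH and HIST2H2BE were also higher with both drugs. HIST1H2BL was called higher with mitoxantrone (log2 change 3.17) and not called with pyrimethamine (1.14, adjusted p = 0.0934). Its difference between mitoxantrone and pyrimethamine was 2.04 on the log2 scale (adjusted p = 0.00243). HIST1H2BL had passed the filter only through mitoxantrone, which favours both of these differences.

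The 2 H3 genes with the most counts were higher with pyrimethamine and lower with mitoxantrone than in the control. HIST1H3E at chr6:26224199-26227473 had 447, 496, 466 and 521 normalized counts in the pyrimethamine libraries, 22.7, 25.8, 28.5 and 17.9 in the mitoxantrone libraries and 87.9, 138, 99.7 and 81.7 in the control libraries. It was 4.79-fold higher (log2 change 2.26, SE 0.175, adjusted p = 8.29e-10) with pyrimethamine and 4.13-fold lower (log2 change -2.05, SE 0.175, adjusted p = 1.2e-09) with mitoxantrone, and the groups did not overlap. Between the drugs it was 19.8-fold lower with mitoxantrone. HIST1H3G had 541, 467, 540.4 and 468 normalized counts in the pyrimethamine libraries, 50.6, 46.7, 37.1 and 54.7 in the mitoxantrone libraries and 152, 145, 190.0 and 166 in the control libraries. It followed the same order without overlap, 3.08-fold higher (log2 change 1.62, SE 0.137, adjusted p = 2.87e-09) with pyrimethamine and 3.42-fold lower (log2 change -1.77, SE 0.137, adjusted p = 2.38e-10) with mitoxantrone.

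HIST1H3J was high after mitoxantrone alone. It had 8.01, 8.87, 15.4 and 15.3 normalized counts in the pyrimethamine libraries, 118, 97.3, 91.5 and 80.7 in the mitoxantrone libraries and 5.61, 8.59, 12.5 and 3.95 in the control libraries. It was 12.02-fold higher (log2 change 3.59, SE 0.339, adjusted p = 5.42e-09) with mitoxantrone, a group through which it passed the filter. With pyrimethamine its log2 change of 0.62 was not called (adjusted p = 0.129), and it shares 44.6% of its exon bases with HIST1H2AM on the same strand. HIST1H3F, which had also passed the filter only through mitoxantrone, had 73 reads there, 1 with pyrimethamine and 4 in the control. Its mitoxantrone to pyrimethamine ratio was 74.6, with a 95% counting interval of 13.0 to 2988, and the filter favoured this difference. HIST1H3H had 205, 202, 181 and 183 normalized counts in the pyrimethamine libraries, 63.0, 62.0, 38.3 and 69.1 in the mitoxantrone libraries and 28.1, 42.9, 57.1 and 31.6 in the control libraries. It was 4.90-fold higher (log2 change 2.29, SE 0.218, adjusted p = 1.67e-08) with pyrimethamine. Its mitoxantrone change of 0.55 (adjusted p = 0.0303) lost its call in 8 alternatives, among them without control replicate 1 or 4 and without mitoxantrone replicate 1, 2 or 4, with log2 changes of 0.40 to 0.74 over all libraries left out. HIST1H3B was higher with both drugs, at log2 changes of 3.12 with pyrimethamine and 2.65 with mitoxantrone.

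HIST1H4C was the H4 gene with the most counts after mitoxantrone. HIST1H4C at chr6:26103876-26104310 had 24.0, 40.4, 46.1 and 38.3 normalized counts in the pyrimethamine libraries, 446, 288, 325 and 274 in the mitoxantrone libraries and 38.4, 46.2, 51.9 and 71.1 in the control libraries. Every mitoxantrone library lay above every other library. HIST1H4C was 6.36-fold higher (log2 change 2.67, SE 0.22, adjusted p = 6.42e-10) with mitoxantrone and 8.82-fold higher than with pyrimethamine. With pyrimethamine its log2 change was -0.47 (adjusted p = 0.0767), not called, though it was called lower after rescaling to the same total, after quantile normalization, and without control replicate 1 or pyrimethamine replicate 3, where the log2 change lay between -0.60 and -0.28 over all libraries left out. HIST1H4H had 190.5, 190.2, 199 and 222 normalized counts in the pyrimethamine libraries, 49.6, 52.5, 44.5 and 30.5 in the mitoxantrone libraries and 58.9, 53.5, 77.9 and 58.0 in the control libraries. It was 3.22-fold higher (log2 change 1.69, SE 0.185, adjusted p = 1.27e-07) with pyrimethamine and 1.41-fold lower (log2 change -0.49, SE 0.185, adjusted p = 0.0226) with mitoxantrone. The mitoxantrone call of HIST1H4H was lost in 4 alternatives (adjusted p from 0.0604 to 0.549), which were quantile normalization, a fit on only the 8 libraries compared, and the fits without control replicate 3 or mitoxantrone replicate 4. The log2 change ran from -0.58 to -0.33 over the libraries left out. HIST1H4D and HIST1H4E were higher with mitoxantrone (log2 changes 2.67 and 2.51), and HIST1H4I and HIST2H4A were higher with pyrimethamine (2.21 and 1.46). HIST1H4D and HIST1H4E had passed the filter only through mitoxantrone, and HIST1H4I only through pyrimethamine, which favours these rises. Without control replicate 1 the values of HIST1H4E and HIST1H4I were 1.72 and 1.59. HIST2H4A has the same coding sequence as HIST2H4B, and how reads that fit both were counted is not given in the sources used here.

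**Figure D3:**
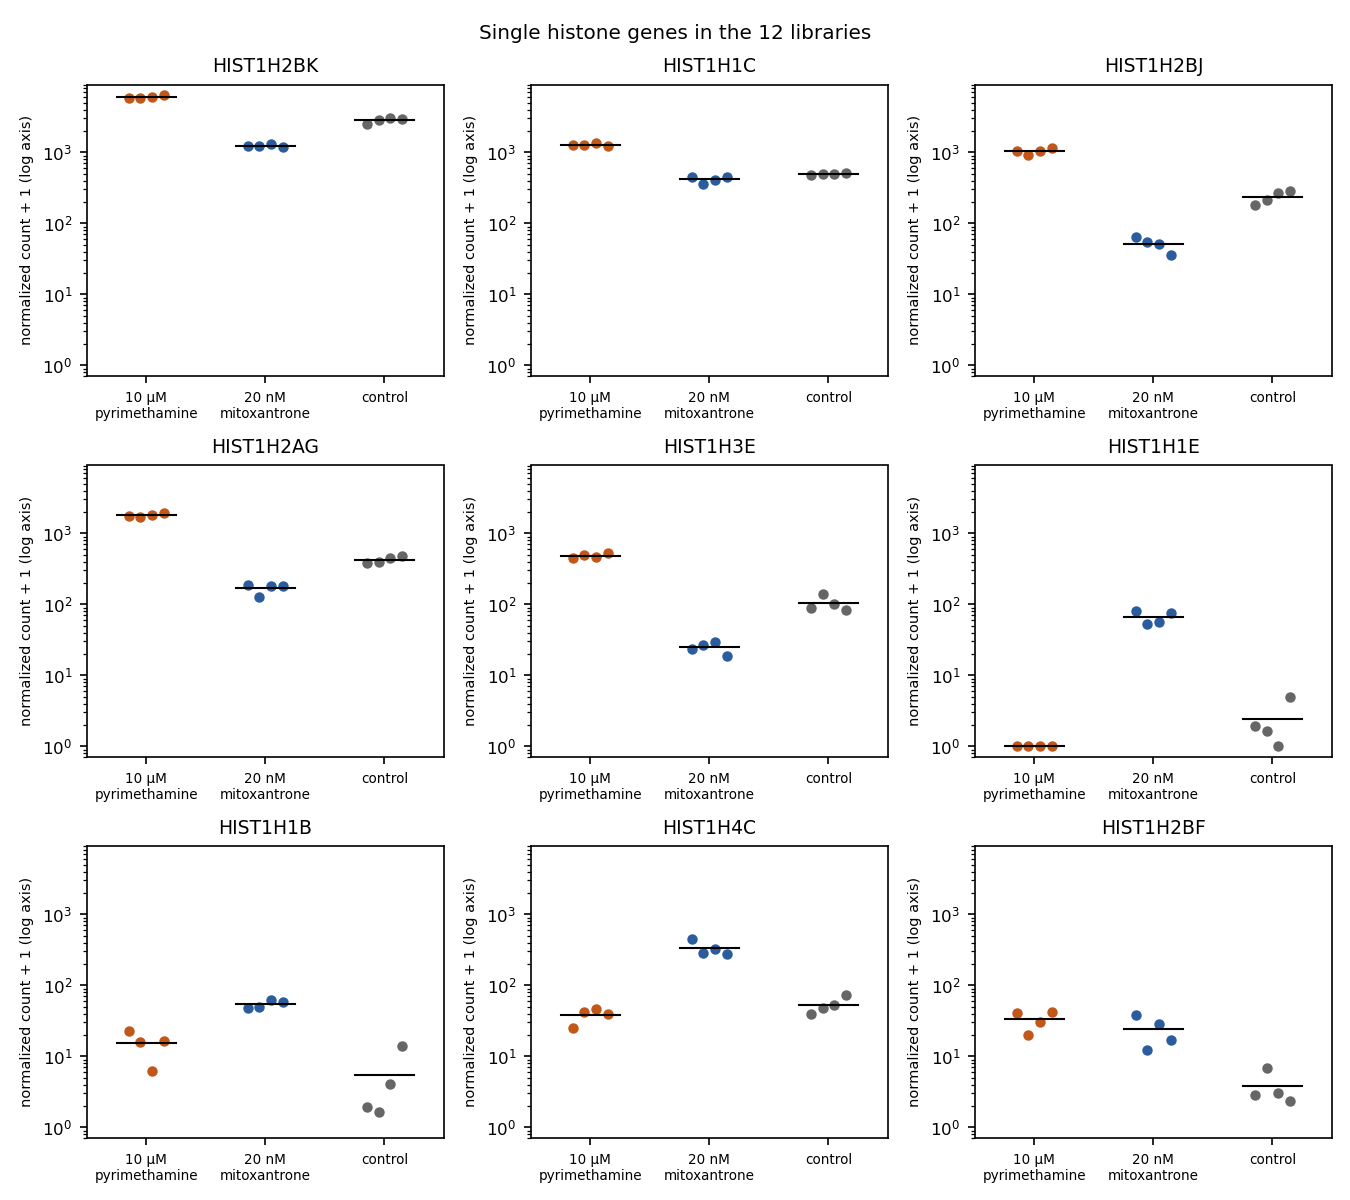
Normalized count + 1 (log axis, the same in all panels) of 9 members in the 4 libraries each of pyrimethamine, mitoxantrone and control, with lines at the group mean. The first 5 genes are highest with pyrimethamine and lowest with mitoxantrone, HIST1H1E, HIST1H1B and HIST1H4C are highest with mitoxantrone, and HIST1H2BF is above the control with both drugs.

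Members were also grouped by how much sequence GENCODE 29 annotates after the stop codon, a split chosen after the values were seen and therefore given without a test. With at least 200 such bases were 21 tested members, with 245 (HIST2H4A) to 3575 (HIST1H2BN). With fewer were 17, none above 116, and the 2 pseudogenes have no coding transcript. Of the 17, 12 have no annotated base after the stop codon, so for these the end of the transcript is not known from it. The longest annotated stretch of each gene was used, and HIST1H2BD, whose hairpin transcript ends 39 bases past the hairpin, counts as long through its other transcript. Beside the counts that follow stand all tested genes, of which 26.4% were higher with pyrimethamine, and 33.5% were higher and 35.8% lower with mitoxantrone. Of the 21 members with long annotated ends, 19 were higher and 2 not called with pyrimethamine, and 8 were higher and 12 lower with mitoxantrone. Of the 17 with short ends, 8 were higher and 9 not called with pyrimethamine, and 12 were higher and 2 lower with mitoxantrone. Those 2 were HIST1H2BK and HIST1H1C. Of the 17, 9 had passed the filter only through mitoxantrone. Among the 8 others, 7 were higher with pyrimethamine, and 3 were higher (HIST1H1B, HIST1H3B and HIST1H4C) and 2 lower with mitoxantrone. Among the 19 with long ends that depended on no 1 group, 18 were higher with pyrimethamine, and 7 were higher and 12 lower with mitoxantrone. The rises with mitoxantrone, 3 of 8 with short ends and 7 of 19 with long ends, were thus both near the share of 33.5% over all tested genes. Without mitoxantrone replicate 1, mitoxantrone left 6 long members higher and 11 lower, and 12 short members higher and 2 lower.

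The sums over all members of each kind, tested or not, avoid that dependence on the filter. The 25 members with long ends summed to 9421 ± 332 normalized counts with pyrimethamine, 1947 ± 134 with mitoxantrone and 3128 ± 358 in the control. The 43 members with short ends other than HIST1H2BK and HIST1H1C summed to 403 ± 76.2 with pyrimethamine, 887 ± 130 with mitoxantrone and 186 ± 17.2 in the control. A few of these 43, HIST1H4C, HIST1H3J, HIST1H1E and HIST1H1B, together held most of their sum in every mitoxantrone library. Both sums were higher with pyrimethamine than in the control, at ratios of 3.01 and 2.17. With mitoxantrone the ratio to the control was 0.622 for long ends and 4.77 for short ends. HIST1H2BK and HIST1H1C were left out after their values were seen. With them, the 45 short members had ratios of 2.20 with pyrimethamine and 0.726 with mitoxantrone.

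**Figure D4:**
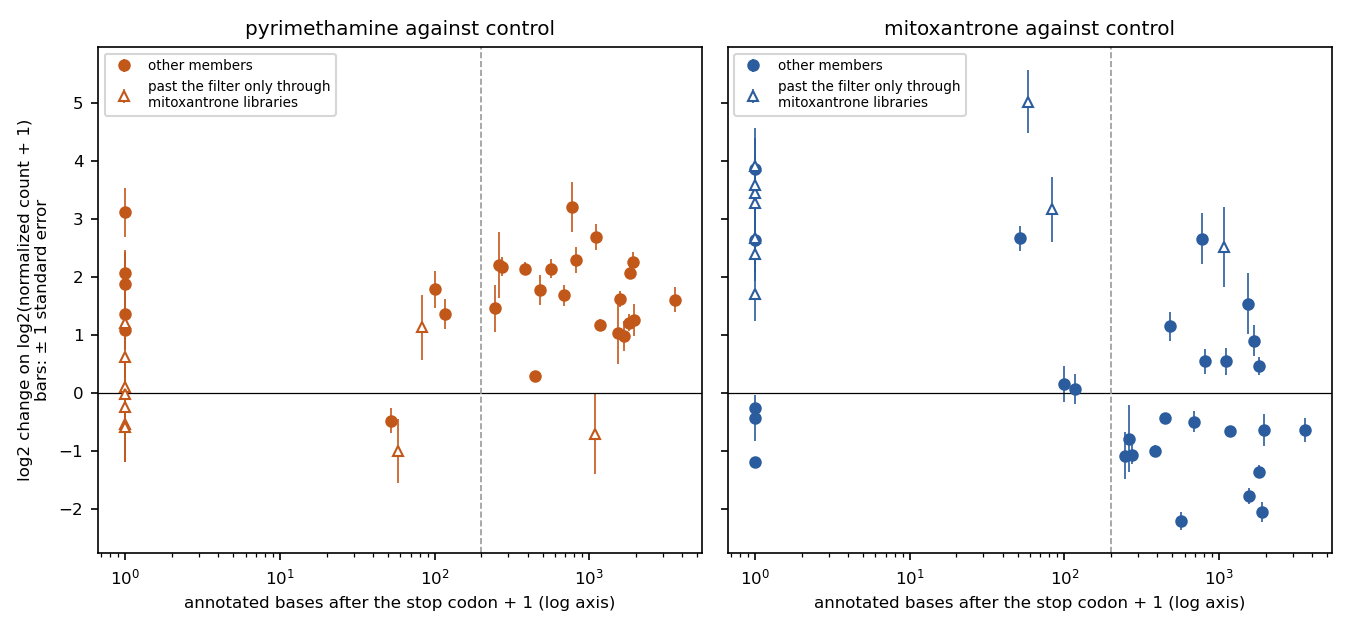
Log2 change against the control (vertical axis, bars ± 1 standard error) by annotated bases after the stop codon + 1 (log axis) for 38 tested members with a coding transcript, with pyrimethamine on the left and mitoxantrone on the right. Open triangles passed the filter only through mitoxantrone libraries, and the dashed line is at 200 bases; with mitoxantrone the triangles lie between 1.72 and 5.03, while most circles right of the line lie below 0.

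With neighbours at most 250 kb apart, the tested members fell into 5 clusters along chromosomes 1 and 6. Over all tested genes 26.4% were higher with pyrimethamine, and 33.5% were higher and 35.8% lower with mitoxantrone. In the small cluster at chr6:27125897-27147515, all 4 tested members (HIST1H2AG, HIST1H2BJ, HIST1H2BK and HIST1H4I) were higher with pyrimethamine, and 3 were lower with mitoxantrone. In the HIST3 cluster at chr1:228424845-228464626, all 3 tested members were higher with pyrimethamine and lower with mitoxantrone. HIST1H4I of the small cluster and HIST3H2BA of the HIST3 cluster had passed the filter only through pyrimethamine, which favours a high value there. Among members that depended on no 1 group, 3 of 3 in the small cluster and 2 of 2 in the HIST3 cluster were higher with pyrimethamine. The mitoxantrone call of HIST3H2BB was lost in 15 alternatives (adjusted p from 0.0503 to 0.55), among them each library left out except mitoxantrone replicate 1. For HIST3H2BA the mitoxantrone call was lost in 3 alternatives, among them without control replicate 2 or mitoxantrone replicate 4 (adjusted p from 0.0528 to 0.73), and the pyrimethamine call in 4, among them without control replicate 4 or pyrimethamine replicate 1 or 3 (adjusted p from 0.0509 to 0.0912). Of 20 tested members in the cluster at chr6:26017085-26285638, 14 were higher with pyrimethamine, and 12 were higher and 7 lower with mitoxantrone. Of these 12, 6 had passed the filter only through mitoxantrone, and among the 14 members that depended on no 1 group 6 were higher and 7 lower. Of 8 in the cluster at chr6:27807444-27893843, 5 were higher with pyrimethamine, and 5 were higher and 1 lower with mitoxantrone. Of these 5 higher ones, 3 had passed only through mitoxantrone, as had 1 of the 3 higher ones of the next cluster. The HIST2 cluster at chr1:149782689-149887916 had 5 tested members, of which 2 were higher with pyrimethamine, and 3 were higher and 1 lower with mitoxantrone.

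Many H2A and H2B genes are transcribed away from each other from a shared stretch. There were 12 such pairs with starts at most 1000 bases apart, 6 of them with both genes tested. HIST1H2BJ and HIST1H2AG, 292 bases apart, changed in the same direction, with log2 changes of 2.15 and 2.08 with pyrimethamine and -2.21 and -1.35 with mitoxantrone. HIST1H2BC and HIST1H2AC, 219 bases apart, changed by 2.18 and 1.18 with pyrimethamine and -1.06 and -0.65 with mitoxantrone. HIST3H2A and HIST3H2BB, 234 bases apart, were both higher with pyrimethamine, at 0.29 and 1.26, and both lower with mitoxantrone, at -0.43 and -0.63. HIST1H2BG and HIST1H2AE, 283 bases apart, were both higher with pyrimethamine, at 2.69 and 1.37, and stood at 0.55 and, not called, 0.07 with mitoxantrone. In each of the 2 pairs left, 1 partner had passed the filter only through mitoxantrone, which favours a high value there. HIST2H2AC, 1 such partner, stood at 3.27 with mitoxantrone and its partner HIST2H2BE at 0.47, while with pyrimethamine HIST2H2BE stood at 1.22 and HIST2H2AC, not called, at 0.10. HIST1H2BL, the other, stood at 3.17 with mitoxantrone and its partner HIST1H2AI, not called, at 0.16. The difference within a pair was not tested.

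The stretch between HIST1H2BJ and HIST1H2AG is shown because it holds the promoters of the member pair with the largest joint fall after mitoxantrone, and that of HIST1H1E because HIST1H1E rose most with mitoxantrone. Both are the 250 bases before the gene's start in RefSeq on GRCh38.p14, on the plus strand, with capitals for 3 motifs searched on either strand. These were CCAAT, the core of the CCAAT box, then TATAAA of the TATA box, and the octamer ATTTGCAT.
HIST1H2AG: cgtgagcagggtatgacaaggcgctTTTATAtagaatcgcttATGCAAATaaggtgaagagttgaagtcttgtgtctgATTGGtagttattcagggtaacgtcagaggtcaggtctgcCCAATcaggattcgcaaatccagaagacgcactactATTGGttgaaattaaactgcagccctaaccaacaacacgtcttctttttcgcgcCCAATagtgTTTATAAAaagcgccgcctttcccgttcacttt
HIST1H1E: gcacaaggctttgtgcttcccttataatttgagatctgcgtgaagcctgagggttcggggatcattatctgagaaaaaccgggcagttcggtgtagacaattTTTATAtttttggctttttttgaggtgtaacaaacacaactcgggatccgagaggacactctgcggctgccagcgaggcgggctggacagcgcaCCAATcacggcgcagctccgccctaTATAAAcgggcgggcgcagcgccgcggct
They lie at chr6:27132793-27133042 (HIST1H2AG) and chr6:26156079-26156328 (HIST1H1E). The HIST1H2AG stretch holds 4 matches of CCAAT, 3 matches of TATAAA and 1 octamer, where 2 of the TATAAA matches overlap on opposite strands. The HIST1H1E stretch holds 1 match of CCAAT, 2 matches of TATAAA and no octamer. RefSeq gave 65 promoters of members, from 250 bases before to 50 after the start. HIST1H2BD, HIST1H2BK, HIST1H3D and HIST1H3E had 2 promoters each, so these genes count more than once in the shares. CCAAT was in 84.6% of them, beside 34.6% of all 35116 promoters in the table. TATAAA was in 66.2%, beside 11.5%, and the octamer in 41.5%, beside 1.77%. The octamer was in 11 of 14 H2A and 15 of 20 H2B promoters, 1 of 12 H3 promoters and none of 6 H1 and 13 H4 promoters. The H3 match lies in a HIST1H3D promoter at chr6:26199244-26199543, which is the same stretch as the HIST1H2AD promoter. The other HIST1H3D promoter has no octamer. Promoters of divergent genes such as HIST1H2AC and HIST1H2BC overlap, so a single site can count for both genes. CCAAT was in every H1, H2A, H2B and H3 promoter and in 3 of 13 H4 promoters. These matches describe the letters and show no binding.

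Genes that act on histone transcripts did not share 1 direction. The counts of this and the other gene lists stand beside all tested genes, of which 26.4% were higher and 26.9% lower with pyrimethamine and 33.5% were higher and 35.8% lower with mitoxantrone. Of 20 genes for transcription and 3′ end processing, 4 were higher and 8 lower with pyrimethamine, and 9 were higher and 5 lower with mitoxantrone. NPAT, the coactivator of histone gene transcription, had log2 changes of -0.09 with pyrimethamine and -0.07 with mitoxantrone, and neither was called (adjusted p = 0.154 and 0.233). SLBP averaged 6042 ± 117 normalized counts with pyrimethamine, 6423 ± 411 with mitoxantrone and 6412 ± 85.6 in the control, and was not called in any comparison. LSM11, a protein of the U7 particle, fell with pyrimethamine (log2 change -0.20) and rose with mitoxantrone (0.37), and ZNF473, which binds that particle, did likewise (-0.32 with pyrimethamine and 0.34 with mitoxantrone). LSM10, which pairs with LSM11 in that particle, was called higher with pyrimethamine (0.12) and not called with mitoxantrone (-0.05). PCF11, a factor of cleavage and polyadenylation, had the largest changes of the list, -0.68 with pyrimethamine and 0.70 with mitoxantrone. POU2F1, which binds the octamer, rose with both drugs (0.52 and 0.64). HINFP, which acts on H4 promoters, fell with mitoxantrone (-0.36) and was not called with pyrimethamine (0.08).

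Of 11 genes of histone mRNA decay, 5 were higher and 5 lower with pyrimethamine, and 7 were higher and 1 lower with mitoxantrone. TUT4 and TUT7, which add uridines to transcripts, fell with pyrimethamine (-0.38 and -0.36) and rose with mitoxantrone (0.51 and 0.60). ERI1, the exonuclease that trims behind the hairpin, fell with both (-0.15 with pyrimethamine and -0.15 with mitoxantrone). DCP2, the decapping enzyme, rose with both (0.72 and 0.65).

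Histone variants outside these clusters, listed because they make transcripts with a poly(A) tail, were mostly higher with mitoxantrone. Whether some of them also make transcripts without a tail was not examined. Of 11 tested, 10 were higher and 1 was not called with mitoxantrone, where 33.5% of all tested genes were higher, with a median log2 change of 0.53, and 5 were higher and 1 lower with pyrimethamine, with a median of 0.04. The 1 not called with mitoxantrone was H2AFY2 (log2 change -0.06, adjusted p = 0.261), which fell with pyrimethamine (-0.73). H1F0, the linker histone of resting and differentiated cells, averaged 4791 ± 569 normalized counts with mitoxantrone and 2004 ± 136 in the control, and was 2.38-fold higher. H2AFX, the variant phosphorylated at DNA breaks, was 1.32-fold higher with pyrimethamine and 1.89-fold higher with mitoxantrone. CENPA, the centromeric H3, was 1.53-fold higher with pyrimethamine and 1.45-fold higher with mitoxantrone.

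Of 23 histone chaperones and import factors, 1 was higher and 9 lower with pyrimethamine, and 11 were higher and 6 lower with mitoxantrone. NASP, which holds H3 and H4 in reserve, fell with pyrimethamine (log2 change -0.43) and rose with mitoxantrone (0.16). ASF1A, an H3 and H4 chaperone, was 2.18-fold higher with mitoxantrone. CHAF1B, of the assembly factor CAF-1, fell with both drugs (-0.46 with pyrimethamine and -0.38 with mitoxantrone). Of 24 genes of S phase and DNA synthesis, 3 were higher and 12 lower with pyrimethamine, and 8 were higher and 12 lower with mitoxantrone. CCNE2, a cyclin of S phase entry, was 1.93-fold lower with pyrimethamine and 2.44-fold lower with mitoxantrone. CCNA2, the S and G2 cyclin, was 1.37-fold higher with pyrimethamine and 1.41-fold higher with mitoxantrone. RRM2, which supplies deoxynucleotides, was 1.13-fold lower with pyrimethamine and 1.61-fold lower with mitoxantrone.

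Since most histone mRNAs lack a poly(A) tail, other RNAs without one were summed as a measure of how much such RNA each library held. Over 23 such RNAs the sum was 1727 ± 512 normalized counts with pyrimethamine, 3939 ± 482 with mitoxantrone and 4219 ± 1274 in the control, with pyrimethamine below all other libraries. Of the 3 that were tested, RN7SL1, RN7SL2 and SNORD3A, all were lower with pyrimethamine, at log2 changes of -1.18, -1.40 and -1.56. With mitoxantrone SNORD3A was lower (-0.66), and RN7SL1 (-0.09) and RN7SL2 (0.00) were not called. RN7SK, RPPH1 and RNU2-2P, abundant RNAs in most cells, were listed at 0 in every library. The sum was thus lower with pyrimethamine, where the histone sum was higher. Its part in the histone results was not tested, and the kind of library selection is not given in the sources used here.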

How the data were processed

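The 12 RNA-seq libraries were analysed from 1 deposited table. Its values are a normalized signal that, judged from the values, the authors made from read counts with a size factor for each library. Multiplying back gave whole reads for 100.0% of values within 0.01 read. The submitters' processing notes name the tools STAR 2.6.90c, featureCounts 1.5.1, cutadapt 1.12 and FastQC 0.11.5 and the builds hg38 and mm10. Strand setting, treatment of reads that fit several genes, and library selection are not given in the sources used here. The table had 0 unused value columns. Coordinates and transcript ends came from GENCODE release 29 on GRCh38, which may differ from the authors' annotation, and promoters from RefSeq.

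The members, companion gene lists and tests were chosen with earlier results of these data known. The main test was limma 3.58.1 (R 4.3.3) on log2(value + 1), with 1 mean per group over the 12 libraries, for the 16950 genes that reached 10 in 4 or more libraries. Two-sided p-values were adjusted by Benjamini-Hochberg over all tested genes of a comparison and called at 0.05. Log2 changes on this scale understate changes of low genes, and folds are 2 to the power of them. Named genes were the 2 members with the highest mean in each histone type, the 3 with the largest rise or fall in each comparison among well-counted called members, and those that passed the filter through 1 group. HIST1H2BF, HIST1H3B and others were added after their values were seen. The recovered reads were also tested with edgeR 4.0.16 and with DESeq2 1.42.0, and the calls were tried on simulated data. Where all 4 libraries of a group had 0 reads, the floor was 3 reads over the group. Floors and intervals cover counting error only. Same-numbered libraries showed little correlation, which cannot establish that the samples were unpaired.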

Additional observations from a re-analysis of the deposited data

Results flagged for a closer look

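Of 63 gene and group combinations examined, 2 held a library far from the 3 others of its group, and chance alone flags about 1 in 20. HIST1H2AG had 124 normalized counts in mitoxantrone replicate 2, below the 3 other mitoxantrone libraries, which had 181 to 184. HIST1H2BK had 6337 normalized counts in pyrimethamine replicate 4, above the 3 others, which had 5875 to 5949.6. Leaving out that library kept both genes' calls. Among the 15 symbols left out as pseudogenes, HIST1H2APS4 held signal. It averaged 89.7 ± 19.5 normalized counts with pyrimethamine, 7.13 ± 2.99 with mitoxantrone and 24.6 ± 5.80 in the control (SD, n = 4 each), and no 2 groups overlapped.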

How the results depend on the processing

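Pyrimethamine raised 26 to 30 tested members over the control as single libraries were left out, and lowered 0 to 2. It lowered 1 member (HIST1H4C) after scaling every library to 1 total, and 2 (HIST1H4C and HIST2H2BD) under quantile normalization. Against the control, mitoxantrone left 18 to 19 members higher and 12 to 14 lower as single libraries were left out, and 21 higher and 10 lower under quantile normalization. Between the drugs 12 were higher and 22 to 23 lower over the libraries left out. Of the 12 higher in the main fit, 9 had passed the filter only through mitoxantrone. The log2 ratio of the summed counts between mitoxantrone and pyrimethamine was -1.89, and -1.78 under quantile normalization. The H3 sum ratio of mitoxantrone to control turned from -0.23 to 0.14 on the log2 scale under quantile normalization, and between mitoxantrone and pyrimethamine it was -1.84 there. With the boundary between short and long annotated ends at 300 bases, chosen after seeing the data, 4 short members were lower with mitoxantrone than in the control and 8 lower than with pyrimethamine, in place of 2 and 5. The cause of these shifts was not tested.

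With a replicate block, pyrimethamine against the control kept 28 higher and mitoxantrone against the control had 20 higher and 14 lower, losing HIST3H2BB. The block changed no call between the drugs. Correlations between same-numbered libraries ran from -0.13 to 0.121, so no pairing was seen, though a weak shared effect could be missed. Rescaling to the same total shifted the median of all genes by -0.10 on the log2 scale for mitoxantrone against the control. No called member changed sign in any alternative. Depth limits the members with few reads, where HIST1H1D and HIST1H1E had 0 reads with pyrimethamine.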
